A study of Homo sapiens with 12 samples.

Results

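Gene expression was compared between MDA-MB-231 cancer cells kept in MEM with 0.1% FBS and harvested at 90% confluence, and the same line in MEM with 10% FBS, harvested at 50% confluence. FBS is fetal bovine serum, the usual source of growth factors, hormones, lipids and attachment proteins in culture, and MEM is minimum essential medium. The members of the comparison are the 4 arrays of these conditions, 2 for each, chosen by their labels out of the 12 arrays of 6 conditions, and all 47231 probes. Both conditions share the cell line and MEM with added L-glutamine, pyruvate, amino acids, vitamins and antibiotics. MDA-MB-231 is an established line described as triple-negative, basal-like breast cancer. The 8 other arrays hold cells at 90% confluence in MEM with 10% FBS, in DMEM with 10% FBS, in RPMI-1640 with 10% FBS, or in MEM with 10% horse serum (HS). Serum and density both differ between the 2 conditions compared, so that their parts in a difference cannot be told apart from these 4 arrays. Nothing in the labels says whether the 2 arrays of a condition came from separate cultures. The p-values then measure only the spread between arrays of a condition, pooled over all 12 arrays, and this spread may be technical.

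Cells that lose serum lose mitogens, and proliferating cells then leave the cell cycle in G1, when the retinoblastoma proteins hold back E2F and the genes of DNA replication. Serum also brings cholesterol and fatty acids in lipoproteins. When sterols run low in the endoplasmic reticulum (ER), SREBP factors are cleaved and switch on sterol and fatty acid synthesis. Shortage of amino acids or misfolded protein in the ER raises translation of ATF4, which drives amino acid enzymes, transporters and the factor CHOP. Serum lysophospholipids and an open, spread cell shape keep the coactivators YAP and TAZ in the nucleus.

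The values are log2 normalized signals from Illumina HumanHT-12 v4 bead arrays, on which genes without expression sit near 7 and the brightest near 14. A gene was read by its brightest probe, and 463 olfactory receptor probes gave the background, as the signal under which 95% of them lay on an array (6.90 to 6.99). The arrays in 0.1% FBS had 17185 and 17412 probes above background, and those at 50% confluence had 17374 and 18392. The correlation between the 2 arrays was 0.987 in 0.1% FBS, lower than in the other 5 conditions, and 0.991 at 50% confluence, while arrays of the 2 conditions correlated at 0.964 to 0.972. In 0.1% FBS, 105 probes differed by more than 1 on the log2 scale between the 2 arrays, against 2 probes at 50% confluence. A difference is the mean in 0.1% FBS minus the mean at 50% confluence on the log2 scale, and it was called at an adjusted p under 0.05 (limma, Benjamini-Hochberg over all probes). With 2 arrays in a condition, the number of arrays limits the precision. The spread is shared by all 6 conditions, so an SE can be too small where the arrays in 0.1% FBS lie apart. In RNA from whole cultures fewer cells of a type and less RNA per cell cannot be told apart.

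Of 37 gene lists, the cell cycle lists had the lowest medians in 0.1% FBS, and genes of sterol synthesis, of the ATF4 response and of the melanocyte lineage were among the higher ones. In all, 5111 of 47231 probes were called, 2567 higher (5.43%) and 2544 lower (5.39%). In all 5111 called probes the arrays of the 2 conditions did not overlap, so that non-overlap adds nothing to a call. The median size of a called difference was 0.60. Of these, 767 were also at least 2-fold different, 412 higher and 355 lower, for 649 gene symbols. By 1 probe per symbol, 6.36% of 31334 symbols were higher and 6.26% lower, and among the 12752 expressed symbols 14.9% were higher and 15% lower. All shares of gene groups below are read against these values. A gene can stand in more than 1 list, so the counts of different lists are not separate results. The median difference over all symbols was near 0, at -0.003. Without array 1 at 50% confluence 3147 probes were called. The arrays in MEM with 10% FBS at 90% confluence enter only through the shared spread, and 4602 probes were called without them.

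**Figure D1:**
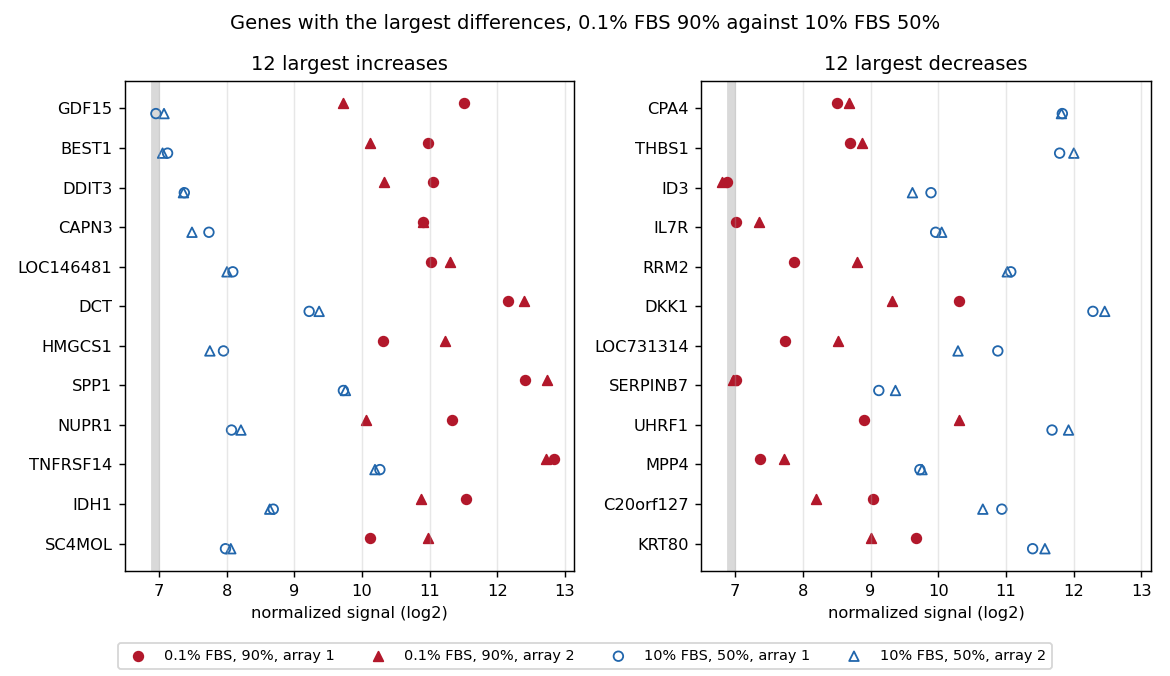
Normalized signal (log2) on each of the 4 arrays for the 12 genes with the largest increases (left) and the 12 with the largest decreases (right), with 0.1% FBS in filled red and 10% FBS at 50% confluence in open blue. The grey band is the background (6.90 to 6.99), and GDF15 is the most spread within 0.1% FBS. Arrays of the 2 conditions that do not overlap were required for these 24 genes.

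The largest increase was in GDF15, a stress-induced cytokine of the TGF-β superfamily. It gave 11.51 and 9.72 in 0.1% FBS, against 6.95 and 7.07 at 50% confluence, a difference of 3.60 (SE 0.34, adjusted p = 4.45e-06). The arrays in 0.1% FBS lay 1.80 apart, and at 50% confluence GDF15 was above background on 1 array of 2. BEST1, a chloride channel best known from the retinal pigment epithelium, gave 10.98 and 10.13 in 0.1% FBS, against 7.13 and 7.05 at 50% confluence. SPP1, which codes for the secreted phosphoprotein osteopontin, gave 12.40 and 12.73 in 0.1% FBS, against 9.72 and 9.76 at 50% confluence, and its difference was 2.82 (SE 0.15, adjusted p = 1.73e-08). The others among the 12 largest were DDIT3, CAPN3, DCT, HMGCS1, NUPR1 and SC4MOL, described below with their lists, LOC146481 (3.12), IDH1, the cytosolic isocitrate dehydrogenase (2.54), and TNFRSF14, whose value depends on the table used.

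The largest decrease was in CPA4, a secreted carboxypeptidase. It gave 8.50 and 8.68 in 0.1% FBS, against 11.83 and 11.82 at 50% confluence, a difference of -3.24 (SE 0.16, adjusted p = 6.84e-09). THBS1, the matrix protein thrombospondin 1, gave 8.70 and 8.87 in 0.1% FBS, against 11.79 and 12.003 at 50% confluence. IL7R, the receptor of interleukin 7, stood just above background in 0.1% FBS, at 7.02 and 7.35, against 9.96 and 10.05 at 50% confluence. DKK1, a secreted inhibitor of WNT signaling, gave 10.31 and 9.32 in 0.1% FBS, against 12.29 and 12.46 at 50% confluence. Its other probe differed by -0.35 and was not called. The serpin SERPINB7 (-2.25) and the keratin KRT80 (-2.15) fell as well, as did MPP4 (-2.20), C20orf127 (-2.18) and LOC731314 (-2.46).

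Genes of the G1/S transition and of DNA replication were lower in 0.1% FBS in 35 of the 42 measured and higher in 0, with a median difference of -0.996. RRM2, the small subunit of ribonucleotide reductase, which makes deoxynucleotides, gave 7.87 and 8.81 in 0.1% FBS, against 11.07 and 11.02 at 50% confluence, a difference of -2.71 (SE 0.22, adjusted p = 1.01e-06). UHRF1, which guides maintenance DNA methylation behind the replication fork, gave 8.90 and 10.30 in 0.1% FBS, against 11.68 and 11.93 at 50% confluence. Cyclin E2 (CCNE2), which starts replication with CDK2, gave 7.27 and 8.28 in 0.1% FBS, against 9.63 and 9.59 at 50% confluence. Its other probe differed by 0.06 and was not called.
E2F2, a transcription factor that activates replication genes, gave 7.94 and 8.90 in 0.1% FBS, against 10.14 and 10.24 at 50% confluence. Cyclin D1 (CCND1), the cyclin most directly under mitogen control, gave 10.51 and 10.76 in 0.1% FBS, against 12.36 and 12.40 at 50% confluence. In 0.1% FBS, array 1 was below array 2 in each of these 5 genes, by over 1 in UHRF1 and CCNE2. Over the list, array 1 in 0.1% FBS was above array 2 in 2 of 42 genes, and the median difference from 50% confluence was -1.25 for array 1 and -0.71 for array 2. The members not called were CDC6, MCM3, GINS1, ORC6L, POLA1, POLD1 and E2F1, of which E2F1 gave 7.10 and 7.47 in 0.1% FBS and 7.06 and 7.22 at 50% confluence.

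The promoters of the replication genes are shown because the list holds the classical E2F targets. Promoter sequences from 250 bases before to 50 after the start (RefSeq, GRCh38.p14) were found for 36 of the 42 genes, and both strands were searched. The E2F motif TTTCCCGC was present in 9 of 36, against 1.66% of all 27305 promoters, and 8 of the 9 genes were lower in 0.1% FBS. The E2F motif TTTGGCGC was present in 7 of 36, against 0.659% of all promoters, and 3 of these 7 genes were lower. Both counts stand beside 29 lower among all 36 genes with a promoter. The stretches for UHRF1 (chr19:4909447-4909500, plus strand), GINS2 (chr16:85688955-85689025, minus strand) and E2F2 (chr1:23531234-23531315, minus strand) follow with the motif in capitals, in either orientation.
UHRF1: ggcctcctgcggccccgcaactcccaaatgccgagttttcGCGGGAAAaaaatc
GINS2: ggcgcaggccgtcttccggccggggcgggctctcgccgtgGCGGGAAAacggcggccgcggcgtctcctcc
E2F2: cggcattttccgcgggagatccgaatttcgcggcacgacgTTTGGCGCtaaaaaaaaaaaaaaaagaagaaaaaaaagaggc
A match is a description of the letters in this window and not a measured site.

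Mitotic genes were lower in 34 of 41 and higher in 0, with a median difference of -0.88. CDC20, the activator of the anaphase-promoting complex, gave 10.83 and 10.85 in 0.1% FBS, against 12.82 and 12.75 at 50% confluence, a difference of -1.94 (SE 0.12, adjusted p = 8.02e-08). Cyclin A2 (CCNA2) gave 8.48 and 8.95 in 0.1% FBS, against 10.59 and 10.56 at 50% confluence. BIRC5, which codes for survivin of the chromosomal passenger complex, gave 8.03 and 8.36 in 0.1% FBS, against 9.93 and 9.76 at 50% confluence. CDCA3 (-1.68) and the actin-binding protein of the cleavage furrow ANLN (-1.46) were lower too, with the arrays of ANLN in 0.1% FBS over 1 apart, at 8.14 and 9.22. The promoter motif TTTGAA, which occurs within the cell cycle homology region of mitotic genes, was present in 24 of 34 promoters, against 15.4% of all. Of these 24 genes 19 were lower, near the share among all 34 genes with a promoter, of which 27 were lower.

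Inhibitors of cyclin-dependent kinases and genes of quiescence were split, with 6 of 20 higher, 4 lower and a median of 0.06. BTG1, an antiproliferative factor that recruits the deadenylase complex, gave 12.20 and 11.39 in 0.1% FBS, against 10.30 and 10.68 at 50% confluence. CCNG1, a p53-induced cyclin, was higher by 1.14 and KLF6 by 0.79. CDKN2D, which codes for the CDK4 inhibitor p19, fell by 0.89 and KLF2 by 0.80. The other probes of CCNG1 (-0.02) and CDKN2D (-0.11) were not called. Neither direction was shared by the list.

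**Figure D2:**
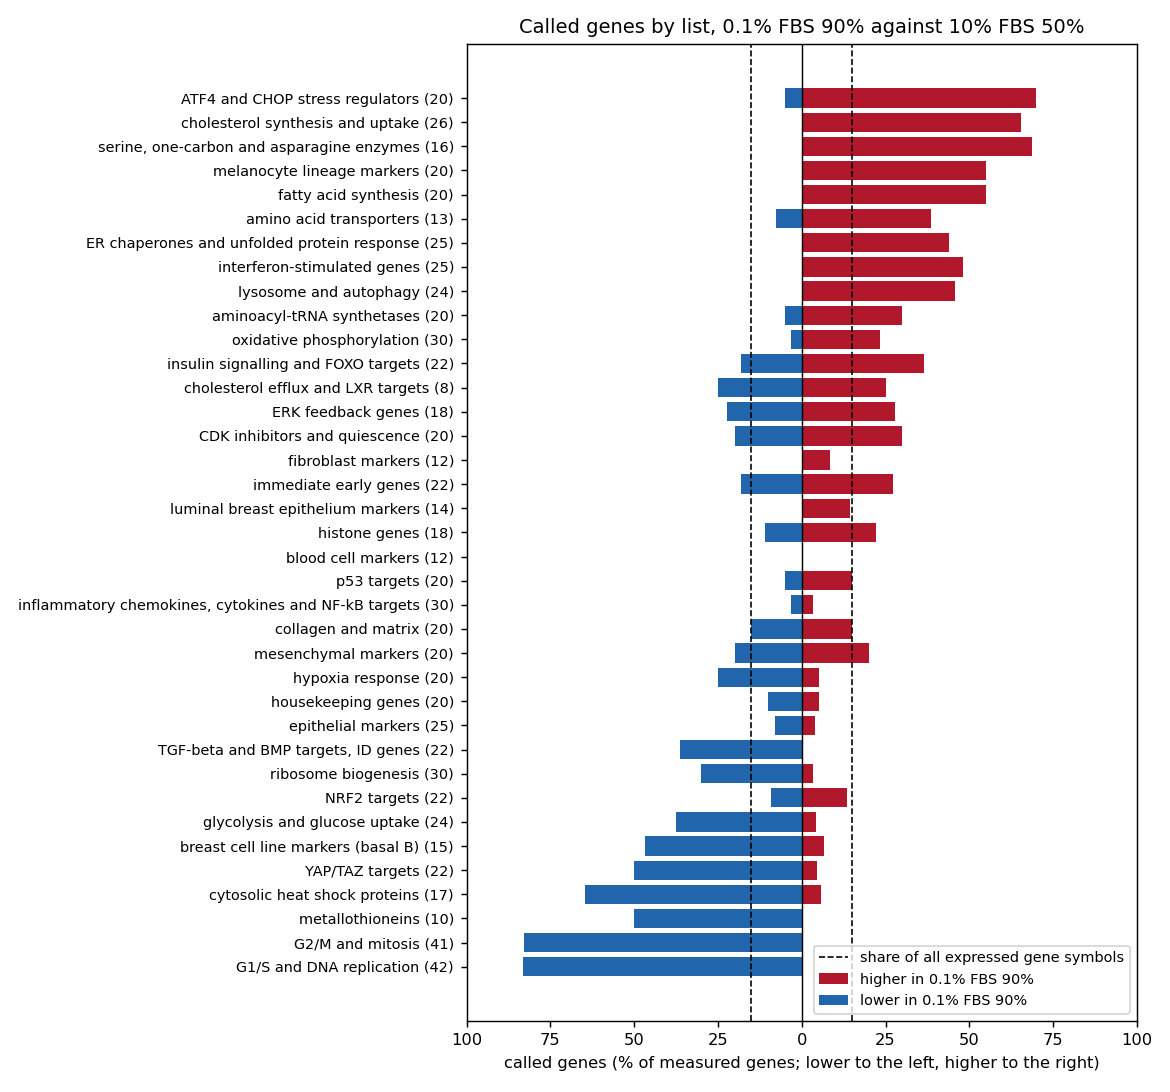
Share of the measured genes of each list (number in parentheses) that was called higher (red, to the right) or lower (blue, to the left) in 0.1% FBS at 90% confluence than in 10% FBS at 50% confluence, with lists ordered by median difference. Dashed lines mark the shares among all expressed symbols (14.9% higher, 15% lower), and the cell cycle lists at the bottom reach furthest from them, with 35 of 42 and 34 of 41 genes lower.

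Cholesterol genes were higher in 0.1% FBS in 17 of 26 and lower in 0, with a median difference of 0.97. HMGCS1, the enzyme that makes HMG-CoA, gave 10.31 and 11.23 in 0.1% FBS, against 7.95 and 7.75 at 50% confluence, a difference of 2.92 (SE 0.19, adjusted p = 1.36e-07). SC4MOL, the methylsterol oxidase of the later pathway, gave 10.12 and 10.97 in 0.1% FBS, against 7.98 and 8.06 at 50% confluence. INSIG1, the sterol-sensing protein that holds SREBP in the ER, gave 10.97 and 11.67 in 0.1% FBS, against 9.04 and 9.002 at 50% confluence.
ACAT2, the cytosolic thiolase at the head of the pathway, gave 11.50 and 11.86 in 0.1% FBS, against 9.46 and 9.50 at 50% confluence. Its other probe differed by 0.33 and was not called. SC5DL, the lathosterol oxidase, gave 9.73 and 9.95 in 0.1% FBS, against 7.82 and 7.83 at 50% confluence. In each of these 5 genes array 2 was the higher of the arrays in 0.1% FBS. Array 1 was above array 2 in 4 of the 26 genes. The 9 members not called included MVK, PMVK, TM7SF2, HSD17B7, EBP, SREBF2, STARD4 and IDI2. Of these SREBF2, the SREBP that governs sterol genes, gave 7.22 and 7.09 in 0.1% FBS and 6.92 and 7.09 at 50% confluence.

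Genes of cholesterol efflux went both ways, with 2 of 8 higher and 2 lower. ABCA1, the transporter that hands cholesterol to apolipoproteins, gave 9.49 and 9.11 in 0.1% FBS, against 10.25 and 10.46 at 50% confluence, a difference of -1.05 (SE 0.14, adjusted p = 9.21e-05). Fatty acid synthesis genes were higher in 11 of 20 and lower in 0, with a median of 0.57. The stearoyl-CoA desaturase SCD, which makes monounsaturated fatty acids, gave 12.14 and 12.47 in 0.1% FBS, against 10.05 and 10.29 at 50% confluence. LPIN1, a phosphatidate phosphatase, rose by 1.87, the acyl-CoA synthetases ACSL3 and ACSL1 by 1.72 and 1.21, and ACSS2, which activates acetate, by 1.59. Among cholesterol genes the sterol motif TCACNCCAC was present in 1 of 19 promoters, that of SREBF2, against 1.15% of all, and the NF-Y motif CCAAT in 15 of 19, against 35.7% of all.

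Regulators of the ATF4 and CHOP response were higher in 14 of 20 and lower in 1, with a median of 1.02. DDIT3, which codes for CHOP, gave 11.05 and 10.32 in 0.1% FBS, against 7.37 and 7.36 at 50% confluence, a difference of 3.32 (SE 0.19, adjusted p = 3.34e-08). TRIB3, a pseudokinase induced by CHOP, gave 12.87 and 11.15 in 0.1% FBS, against 10.00 and 9.86 at 50% confluence. NUPR1 gave 11.33 and 10.07 in 0.1% FBS, against 8.07 and 8.21 at 50% confluence.
ATF3, a stress-induced factor of the same family, gave 10.33 and 10.08 in 0.1% FBS, against 8.39 and 8.64 at 50% confluence. Its 2 other probes differed by 0.03 and 0.35 and were not called. In TRIB3 and NUPR1 the arrays in 0.1% FBS lay over 1 apart with array 1 the higher. Array 1 was above array 2 in 15 of the 20 regulators. The list was called in 11 genes without array 1 in 0.1% FBS and in 16 without array 2, counting those higher. CHAC1, an ATF4 target that degrades glutathione, was called higher while below background on all 4 arrays, so no level is given for it.

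Enzymes of serine, one-carbon and asparagine synthesis were higher in 11 of 16 and lower in 0, with a median of 0.89. ASNS, asparagine synthetase, gave 12.38 and 10.998 in 0.1% FBS, against 9.85 and 9.68 at 50% confluence, a difference of 1.92 (SE 0.28, adjusted p = 2.13e-04). CTH, the cystathionine lyase that makes cysteine, gave 9.78 and 8.68 in 0.1% FBS and was not above background at 50% confluence (6.83 and 6.72), so it was at least 4.84-fold higher. CBS, the enzyme before it, gave 11.61 and 9.89 in 0.1% FBS, against 8.71 and 8.53 at 50% confluence. PCK2, the mitochondrial PEP carboxykinase, was higher by 1.30 and PSAT1, a transaminase of serine synthesis, by 1.22. The other PSAT1 probe differed by 0.26 and was not called. Array 1 in 0.1% FBS exceeded array 2 in 16 of 16 genes, by over 1 in ASNS, CTH, CBS and PCK2, and the median difference from 50% confluence was 1.44 for array 1 and 0.37 for array 2. The count of 11 became 6 without array 1 in 0.1% FBS, 7 without array 1 and 6 without array 2 at 50% confluence.

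Aminoacyl-tRNA synthetases, which charge tRNAs, were higher in 6 of 20 and lower in 1. WARS gave 10.999 and 9.80 in 0.1% FBS, against 9.01 and 8.79 at 50% confluence, and GARS rose by 1.23, both with arrays in 0.1% FBS over 1 apart, and the call of GARS was lost without array 1 at 50% confluence. The count of 6 became 3 without array 1 in 0.1% FBS, 2 without array 1 at 50% confluence, 4 without array 2 at 50% confluence, and 3 when the 4 arrays were fitted alone. Of 13 amino acid transporters, 5 were higher and 1 lower. SLC1A4, a neutral amino acid transporter, gave 9.45 and 9.11 in 0.1% FBS, against 7.76 and 7.82 at 50% confluence, and SLC38A2, the starvation-induced transporter SNAT2, gave 10.76 and 10.37 in 0.1% FBS, against 9.39 and 9.41 at 50% confluence. The calls of SLC3A2 (1.05), whose arrays in 0.1% FBS lay over 1 apart, and SLC38A1 (0.55) were lost in the fit of the 4 arrays alone. The count of 5 became 2 without array 1 in 0.1% FBS, 9 without array 2 in 0.1% FBS, 2 without array 1 and 3 without array 2 at 50% confluence, and 3 in the 4 arrays alone.

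The ATF4 motif TGATGNAA was looked for on both strands and was found in 3 of 17 promoters of the regulators, 3 of 11 of the serine and asparagine enzymes, 6 of 13 of the synthetases and 3 of 11 of the transporters, against 3.67% of all promoters. Of the genes with the motif, 2 of 3, 2 of 3, 2 of 6 and 2 of 3 were called. These stand beside 13 of 17, 8 of 11, 5 of 13 and 5 of 11 called in either direction among all genes with a promoter. ASNS (chr7:97872429-97872516, minus strand) and ATF3 (chr1:212565176-212565263, plus strand) are shown because both rose and carry it in the plus direction of the gene, with the motif in capitals.
ASNS: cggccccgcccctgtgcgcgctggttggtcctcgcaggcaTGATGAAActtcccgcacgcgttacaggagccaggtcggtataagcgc
ATF3: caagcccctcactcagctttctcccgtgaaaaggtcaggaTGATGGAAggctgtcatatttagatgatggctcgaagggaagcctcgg

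ER chaperones and genes of the unfolded protein response were higher in 11 of 25 and lower in 0, with a median of 0.49. HERPUD1, an adaptor of ER-associated degradation, gave 13.55 and 12.53 in 0.1% FBS, against 10.59 and 10.50 at 50% confluence, a difference of 2.49 (SE 0.21, adjusted p = 1.61e-06). XBP1, the factor spliced by IRE1, gave 12.50 and 11.70 in 0.1% FBS, against 10.13 and 10.44 at 50% confluence. HSPA5, the ER chaperone BiP, gave 10.92 and 9.38 in 0.1% FBS, against 8.39 and 8.55 at 50% confluence.
DNAJB9 (1.74), a cochaperone of BiP, and CRELD1 (1.20) also rose, and in all of these but XBP1 the arrays in 0.1% FBS lay over 1 apart. The other probes of CRELD1 differed by 0.32, 0.23 and -0.04 and were not called. Array 1 was above array 2 in 24 of 25 genes, so that the median difference from 50% confluence was 0.89 for array 1 and 0.11 for array 2. The count of 11 became 7 without array 1 and 18 without array 2 in 0.1% FBS, and 7 without either array at 50% confluence. Among members not called, SDF2L1 gave 11.57 and 10.00 in 0.1% FBS and 10.38 and 10.28 at 50% confluence, so that its arrays in 0.1% FBS lay on either side of those at 50% confluence.

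The full ER stress element, which is CCAAT, 9 bases of any kind and CCACG, was present in 7 of 24 promoters of this list on either strand, against 22 of 27305 promoters (0.0806%). Of these 7 genes, 4 were called higher, beside 11 of all 24 genes with a promoter. Its stretch is shown for HSPA5 (chr9:125241351-125241449, minus strand) and XBP1 (chr22:28800570-28800661, minus strand), with the element in capitals.
HSPA5: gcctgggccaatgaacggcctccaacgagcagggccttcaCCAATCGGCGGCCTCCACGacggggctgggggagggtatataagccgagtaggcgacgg
XBP1: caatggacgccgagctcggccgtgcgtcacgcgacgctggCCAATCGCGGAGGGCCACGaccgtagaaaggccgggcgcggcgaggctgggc

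**Figure D3:**
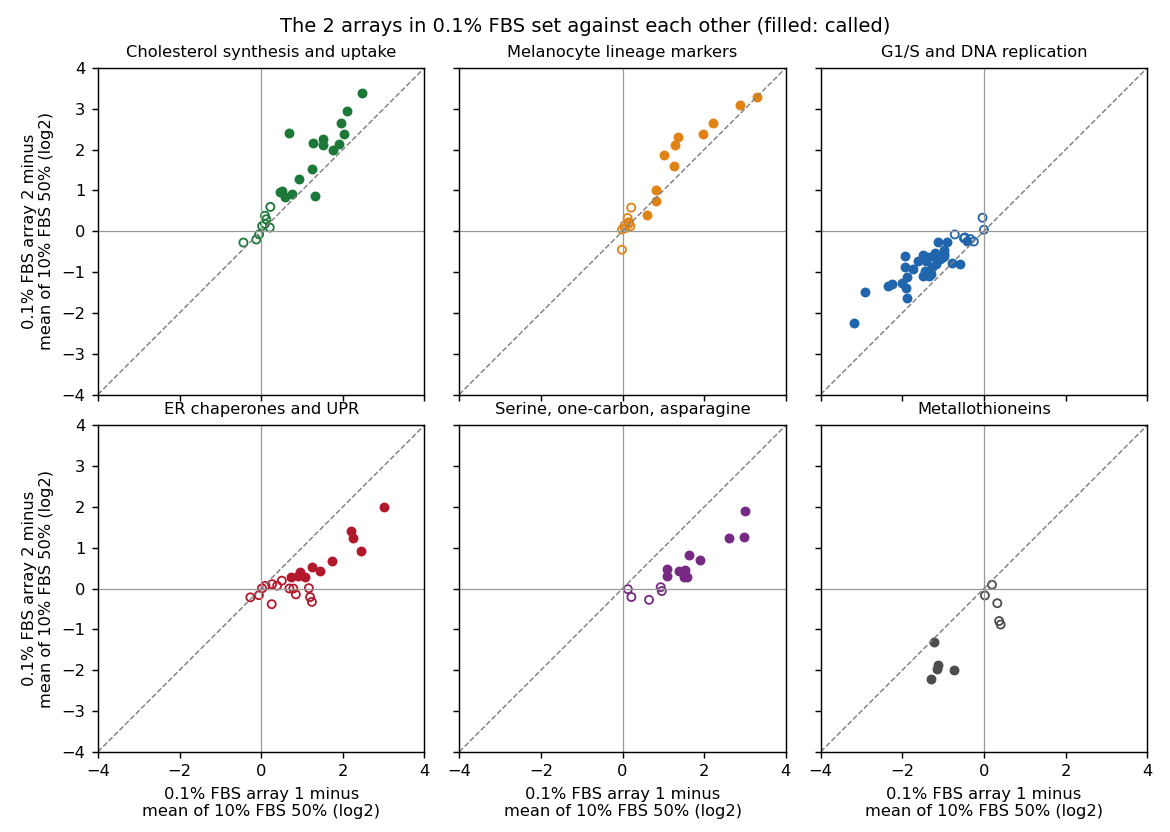
Difference from the mean of 10% FBS at 50% confluence (log2) for array 1 (x axis) and array 2 (y axis) in 0.1% FBS, 1 point per gene of 6 lists, filled where the gene was called. Points below the dashed line of equality are higher on array 1 (24 of 25 ER genes and 16 of 16 serine, one-carbon and asparagine enzymes), and most sterol and replication genes lie above it.

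The 2 arrays in 0.1% FBS differed in opposite ways between lists. Array 1 was higher for ATF4, serine, synthetase, ER and metallothionein genes, and lower for replication, mitosis and sterol genes. The part of any difference in culture or handling between the 2 arrays was not tested.

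Cytosolic heat shock genes, were lower in 11 of 17 and higher in 1, with a median of -0.51. HSPA1B, an inducible HSP70, gave 8.94 and 10.25 in 0.1% FBS, against 10.83 and 10.93 at 50% confluence, with the arrays in 0.1% FBS over 1 apart. BAG3, an HSP70 cochaperone, gave 9.68 and 9.78 in 0.1% FBS, against 10.61 and 10.99 at 50% confluence, a difference of -1.07 (SE 0.11, adjusted p = 1.21e-05). The small heat shock protein CRYAB was the exception and rose by 1.11, while HSPH1 and HSPB1 fell by 0.82 and 0.79. The count of 11 became 5 without array 1 in 0.1% FBS and 6 without either array at 50% confluence, and the call of HSPA1B was lost without array 2 at 50% confluence.

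Metallothioneins, which bind zinc and copper, were lower in 5 of 10 and higher in 0. MT1E gave 11.97 and 11.05 in 0.1% FBS, against 13.39 and 13.17 at 50% confluence, a difference of -1.77 (SE 0.20, adjusted p = 1.98e-05). Its other probe differed by -0.05 and was not called. MT2A gave 12.48 and 11.66 in 0.1% FBS, against 13.72 and 13.55 at 50% confluence. MT1A (-1.50), MT1X (-1.36, arrays in 0.1% FBS over 1 apart) and MT1G (-1.27) were lower as well. These genes are near-identical in sequence, so that a probe can take up signal from its paralogs.

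The ID genes and TGF-β or BMP targets were lower in 8 of 22 and higher in 0, with a median of -0.09 over the list. ID3, an inhibitor of basic helix-loop-helix factors and a direct BMP target, gave 6.88 and 6.80 in 0.1% FBS, which is not above background, against 9.89 and 9.62 at 50% confluence, and was at least 6.89-fold lower. ID1 gave 6.73 and 6.86 in 0.1% FBS, also not above background, against 8.71 and 8.45 at 50% confluence. On this probe it was at least 3.05-fold lower, and its other probe differed by -0.07 and was not called. THBS1 and TGFBI, a matrix protein induced by TGF-β that gave 7.60 and 7.41 in 0.1% FBS against 9.21 and 8.94 at 50% confluence, were in the same list.
YAP and TAZ targets were lower in 11 of 22 and higher in 1, with a median of -0.38. CYR61, a secreted matricellular protein, gave 9.99 and 9.48 in 0.1% FBS, against 11.35 and 11.31 at 50% confluence, a difference of -1.59 (SE 0.15, adjusted p = 3.91e-06). CTGF, its relative, gave 7.61 and 7.24 in 0.1% FBS, against 8.46 and 8.74 at 50% confluence. The receptor kinase AXL (-1.22), caveolin 1 (CAV1, -0.98) and CRIM1 (-0.98) fell too.

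Genes that follow growth factor signals did not move as a group. Of 22 immediate early genes, 6 were higher and 4 lower, and the count lower became 2 without array 1 in 0.1% FBS or without array 2 at 50% confluence. NR4A2, an orphan nuclear receptor, gave 9.14 and 9.21 in 0.1% FBS, against 7.51 and 7.81 at 50% confluence, a difference of 1.51 (SE 0.14, adjusted p = 3.72e-06). MYC gave 10.14 and 10.00 in 0.1% FBS, against 9.02 and 8.93 at 50% confluence. FOSL1, an AP-1 subunit, gave 7.96 and 7.54 in 0.1% FBS, against 8.88 and 8.91 at 50% confluence. Of 18 ERK feedback genes, 5 were higher and 4 lower, with SPRY1 falling by 1.31 and ETV5 rising by 1.03. The other ETV5 probe differed by 0.36 and was not called.
Genes of insulin signaling and FOXO targets were higher in 8 and lower in 4 of 22. IRS2, the insulin receptor substrate that FOXO factors induce, gave 9.19 and 9.39 in 0.1% FBS, against 7.96 and 8.16 at 50% confluence. KLF15 was not above background at 50% confluence (6.90 and 6.73) and gave 8.18 and 7.79 in 0.1% FBS, at least 2.05-fold higher. The members lower in 0.1% FBS included TXNIP (-1.997), BNIP3 (-1.21) and FBXO32 (-1.17).

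Glycolysis and glucose uptake genes were lower in 9 of 24 and higher in 1, with a median of -0.28. TXNIP, an inhibitor of glucose uptake, gave 8.35 and 8.38 in 0.1% FBS, against 10.36 and 10.37 at 50% confluence, a difference of -1.997 (SE 0.12, adjusted p = 4.17e-08). SLC2A1, the glucose transporter GLUT1, gave 10.47 and 9.86 in 0.1% FBS, against 11.57 and 11.67 at 50% confluence, so that the transporter and its inhibitor were both lower. PGAM1 and PKM2, enzymes of lower glycolysis, fell by 1.48 and 0.87. Hypoxia genes were lower in 5 and higher in 1 of 20, with ADM, the vasodilator peptide adrenomedullin, falling by 1.68. Oxidative phosphorylation genes were higher in 7 and lower in 1 of 30, and higher in 4 without array 2 in 0.1% FBS or without array 1 at 50% confluence. Of 30 ribosome biogenesis genes 9 were lower and 1, MYC, was higher, while 4 were lower without array 2 in 0.1% FBS and 3 and 4 without array 1 and array 2 at 50% confluence.

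Lysosome and autophagy genes were higher in 11 of 24 and lower in 0, with a median of 0.33. WIPI1, a phosphoinositide-binding protein of early autophagosomes, gave 10.95 and 9.96 in 0.1% FBS, against 8.96 and 8.78 at 50% confluence. NPC1, which exports cholesterol from lysosomes, gave 10.08 and 9.73 in 0.1% FBS, against 8.64 and 8.71 at 50% confluence, a difference of 1.23 (SE 0.13, adjusted p = 1.25e-05). The count of 11 became 7 without array 2 in 0.1% FBS and 6 without array 1 at 50% confluence.
Interferon-stimulated genes were higher in 12 of 25 and lower in 0, with a median of 0.43. MX1, an antiviral GTPase, gave 10.13 and 9.55 in 0.1% FBS, against 8.13 and 8.05 at 50% confluence, a difference of 1.75 (SE 0.18, adjusted p = 1.04e-05). STAT2 and IRF9, partners in the factor that interferon activates, rose by 1.31 and 1.21. Inflammatory chemokine and NF-κB genes were higher in 1 and lower in 1 of 30, and of these CCL2, a monocyte chemokine, gave 7.59 and 8.998 in 0.1% FBS, over 1 apart, against 9.78 and 9.43 at 50% confluence. The calls of CCL2 and of NFKB1, the other gene called, were lost without array 1 at 50% confluence.

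Among the remaining lists, 3 of 22 NRF2 targets were higher and 2 lower, with GCLM of glutathione synthesis falling by 1.28 and the ferritin light chain FTL rising by 1.01. Of 20 p53 targets 3 were higher and 1 lower, of 18 histone genes 4 and 2, and of 20 collagen and matrix genes 3 and 3. The histone genes called lower became 0 without array 1 in 0.1% FBS or without either array at 50% confluence, and the p53 target called lower, PLK2, was lost without array 1 of either condition. Of 20 housekeeping genes 1 was higher and 2 were lower, with a median of -0.04. The tubulin TUBB fell by 0.94 and RPL13A of the ribosome rose by 0.66, a call lost without array 2 at 50% confluence. Among 12 fibroblast markers 1 was higher, and among 12 blood cell markers 0 were called.

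The cells were labelled MDA-MB-231, and their markers were read on the 4 arrays. Of 15 basal B breast cell line markers, 12 were above background on all 4 arrays, among them vimentin (VIM), CD44, CAV1 and the galectin LGALS1, but EGFR, a defining marker of the line, gave 6.95 and 6.84 in 0.1% FBS and 6.58 and 6.62 at 50% confluence, below background on all 4. Of 14 luminal markers, 7 were below background on all 4 arrays, with the hormone receptors ESR1 and PGR and the factor FOXA1 among them. Of 20 melanocyte lineage markers, 13 were above background on all 4, including SOX10, the neural crest factor, at 10.56 and 10.93 in 0.1% FBS and 10.32 and 10.38 at 50% confluence. S100B, TRPM1, SILV, TYRP1 and MLANA were below background on all 4. The low EGFR and the melanocyte lineage genes go against the label, while the study's methods state that the line had been typed by short tandem repeats, and no cell type is named here beyond the label.

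**Figure D4:**
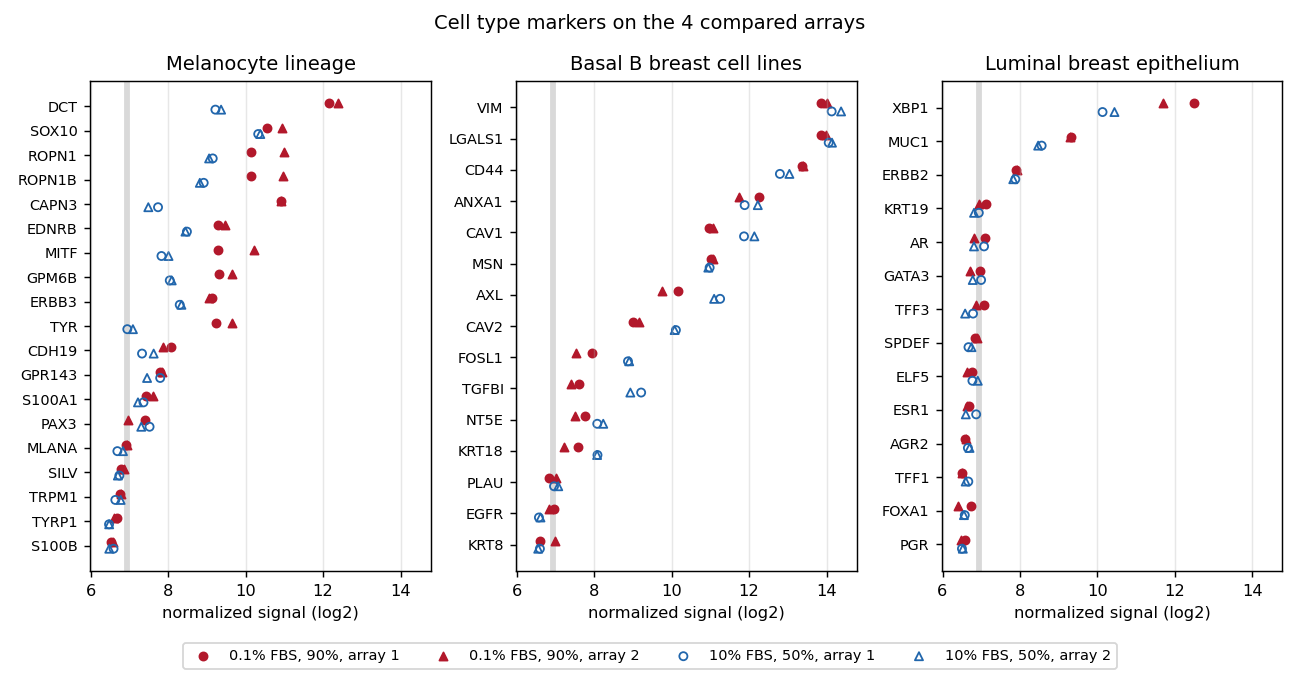
Normalized signal (log2) of melanocyte lineage, basal B and luminal markers on each of the 4 arrays, with 0.1% FBS in filled red, 10% FBS at 50% confluence in open blue and background as a grey band (6.90 to 6.99). SOX10 and DCT stand above background on all 4 arrays and EGFR, ESR1 and PGR do not.

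Melanocyte lineage genes were higher in 0.1% FBS in 11 of 20 and lower in 0, with a median of 0.64. DCT, the dopachrome tautomerase of melanin synthesis, gave 12.16 and 12.39 in 0.1% FBS, against 9.22 and 9.37 at 50% confluence, a difference of 2.98 (SE 0.16, adjusted p = 2.13e-08). CAPN3, a calpain also found in muscle, gave 10.91 and 10.91 in 0.1% FBS, against 7.74 and 7.49 at 50% confluence. Its other probes differed by 3.36, 0.12 and -0.13, and 1 of them was called higher. TYR, the tyrosinase that starts melanin synthesis, gave 9.23 and 9.66 in 0.1% FBS, against 6.95 and 7.09 at 50% confluence, where it was above background on 1 of 2 arrays.
MITF, the master factor of the melanocyte lineage, gave 9.28 and 10.23 in 0.1% FBS, against 7.83 and 8.01 at 50% confluence. Its difference was 1.83 (SE 0.23, adjusted p = 5.15e-05), while its 2 other probes differed by 0.20 and -0.09 and were not called. The arrays of the 2 conditions did not overlap in these 4 genes, as in all called probes. The summed linear signal of the 20 genes was 17136 to 21936 in 0.1% FBS, against 6216 to 6397 at 50% confluence. The part of cells of another type in this result was not tested.
The M-box motif TCATGTG, to which MITF can bind, was present in 3 of 15 promoters of the list on either strand, against 2.99% of all. Of these 3 genes 1 was called higher, beside 9 of all 15 genes with a promoter. It is TYR (chr11:89177730-89177816, plus strand), shown with the motif in capitals.
TYR: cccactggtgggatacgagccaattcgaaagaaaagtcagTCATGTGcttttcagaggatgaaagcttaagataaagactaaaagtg

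Basal B markers were lower in 7 of 15 and higher in 1, and TGFBI, AXL, CAV1 and FOSL1 among these 7 were also counted in lists above. Mesenchymal markers were higher in 4 of 20 and lower in 4, where SNAI2, the factor SLUG, gave 9.06 and 10.23 in 0.1% FBS, against 8.33 and 8.44 at 50% confluence, with the arrays in 0.1% FBS over 1 apart. The mesenchymal count lower became 2 without array 1 in 0.1% FBS or array 2 at 50% confluence, and the count higher 2 without array 1 at 50% confluence. Epithelial markers were higher in 1 of 25 and lower in 2, with 15 below background on all 4 arrays. The gene called higher was CLDN1, a tight junction claudin, at 11.35 and 10.12 in 0.1% FBS, over 1 apart, against 8.22 and 8.35 at 50% confluence, a difference of 2.45 (SE 0.25, adjusted p = 1.02e-05).

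Of the 6 genes that the study followed by RT-PCR, CD44 was called. IL8 gave 7.75 and 7.18 in 0.1% FBS and 7.28 and 7.37 at 50% confluence, a difference of 0.14 (SE 0.18, adjusted p = 0.784), and S100A4 10.89 and 11.36 in 0.1% FBS and 11.25 and 11.16 at 50% confluence, a difference of -0.07 (SE 0.13, adjusted p = 0.856). A p of this size does not show that the levels are equal. CD44 rose to 13.36 and 13.39 in 0.1% FBS, against 12.80 and 13.04 at 50% confluence, by 0.46 (SE 0.11, adjusted p = 0.0103), a call lost without array 1 at 50% confluence. Of the other CD44 probes, that with a difference of 0.51 was called and that with 0.11 was not. CDH1 (-0.06) and CD24 (0.01) were below background on all 4 arrays. ACTB differed by -0.17 (adjusted p = 0.461) on its brightest probe, and by -0.49 on another that was called.
VIM gave 13.86 and 14.01 in 0.1% FBS and 14.13 and 14.38 at 50% confluence, a difference of -0.32 (SE 0.12, adjusted p = 0.116). The 2 deposited tables differ here. The values of 8 probes, among them those for CD44, CD82, CDH1, HLA-DRA, TNFRSF14 and both VIM probes, stand exchanged between the deposited log2 table and the deposited linear signals, and in the linear signals VIM differed by 0.67 (adjusted p = 0.000295). TNFRSF14, the receptor HVEM, was 2.55 higher in the log2 table and -0.31 in the linear one. Across the 12 arrays, other probes of the same gene correlated better with the log2 table, at 0.993 against 0.367 for HLA-DRA and 0.967 against -0.0531 for CD82. On all 12 arrays the brightest VIM probe trades values with HLA-DRA, so that the same HLA-DRA probe bears on the VIM value of -0.32. The second VIM probe trades with TNFRSF14. TNFRSF14 has no other probe, and the other VIM probe is itself exchanged. In the log2 table the 2 VIM probes differed by -0.32 and -0.31, and in the linear signals by 0.67 and 2.55.

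The other arrays were used to set these values beside further comparisons. The mean of DMEM, RPMI-1640 and HS at 90% confluence, called the 90% mean here, differs from MEM with FBS in medium or serum kind as well as in density or serum amount. In 0.1% FBS minus the 90% mean, 5728 probes were called, 379 of them at least 2-fold, and 6.97% of symbols were higher and 6.97% lower. In the 90% mean minus 50% confluence, 2882 probes were called, 64 of them at least 2-fold, and 3.51% of symbols were higher and 3.3% lower. Each shares 2 arrays with the main comparison, so their values are given side by side only. MEM with 10% FBS at 90% confluence, which matches 50% confluence in medium and serum, is not in the 90% mean and is given beside it as array values without a test.

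Replication genes were lower in 33 of 42 in 0.1% FBS against the 90% mean (median -0.74), and lower in 7 of 42 in the 90% mean against 50% confluence (median -0.20). Relative to 50% confluence their median was -0.45 and -0.52 on the HS arrays, -0.14 and -0.16 in DMEM, near 0 in RPMI-1640, and 0.21 and 0.13 in MEM with 10% FBS at 90% confluence. HS was the lowest of the 3 conditions in the 90% mean. The arrays matched in medium and serum, which stood apart in IL8 and S100A4 above, lay above 50% confluence for this list. Mitotic genes were lower in 31 of 41 against the 90% mean, and 5 were lower and 1 higher in the 90% mean against 50% confluence. Relative to 50% confluence their median was lower, at -0.22 and -0.17, in MEM with 10% FBS at 90% confluence. It was -0.56 and -0.51 in HS, -0.14 and -0.11 in DMEM, and 0.18 and 0.06 in RPMI-1640.

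Sterol genes were higher in 16 and lower in 1 of 26 against the 90% mean (median 0.59), and higher in 15 and lower in 1 in the 90% mean against 50% confluence (median 0.51). Relative to 50% confluence their median was 1.05 and 1.04 in DMEM, 0.16 and 0.14 in RPMI-1640, 0.29 and 0.27 in HS, and 0.11 and 0.15 in MEM with 10% FBS at 90% confluence, so DMEM stood apart from the others. HMGCS1 averaged 11.02 in DMEM, 8.44 in RPMI-1640 and 8.77 in HS.

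ATF4 regulators were higher in 12 and lower in 2 of 20 against the 90% mean, and higher in 9 and lower in 0 in the 90% mean against 50% confluence. Their list median, relative to 50% confluence, was 1.21 and 0.55 on the arrays in 0.1% FBS, 1.21 and 1.19 in HS, 0.14 and 0.21 in DMEM, -0.06 and -0.04 in RPMI-1640, and -0.25 and -0.11 in MEM with 10% FBS at 90% confluence. HS was the one of the 4 other 90% conditions near 0.1% FBS. DDIT3 averaged 8.62 in DMEM, 7.33 in RPMI-1640 and 11.48 in HS. ER genes were higher in 7 of 25 against the 90% mean and in 5 in the 90% mean against 50% confluence, with medians of 0.80 and 0.63 on the HS arrays and -0.19 and -0.29 in MEM with 10% FBS at 90% confluence.

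YAP and TAZ targets were lower in 4 and higher in 2 of 22 against the 90% mean (median -0.03), and lower in 8 and higher in 0 in the 90% mean against 50% confluence (median -0.29). In MEM with 10% FBS at 90% confluence their median went the other way, at 0.39 and 0.30 above 50% confluence, with CTGF averaging 10.96 there and 8.60 at 50% confluence, and CYR61 12.15 and 11.33. ID3 differed by -2.33 against the 90% mean and by -0.59 in the 90% mean against 50% confluence, while the MEM arrays at 90% confluence with 10% FBS averaged 10.79 and those at 50% confluence 9.76. Melanocyte lineage genes were higher in 10 of 20 against the 90% mean and in 7 in the 90% mean against 50% confluence, whereas their median in MEM with 10% FBS at 90% confluence was -0.45 on both arrays.

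Lysosome genes were higher in 5 and lower in 2 of 24 against the 90% mean, and higher in 13 and lower in 0 in the 90% mean against 50% confluence, with a median of 0.53 and 0.49 in MEM with 10% FBS at 90% confluence. Metallothioneins were lower in 7 of 10 against the 90% mean and in 0 in the 90% mean against 50% confluence, with -0.26 and -0.38 in MEM with 10% FBS at 90% confluence. Interferon-stimulated genes were higher in 11 of 25 against the 90% mean and in 11 in the 90% mean against 50% confluence. Their median was 0.64 and 0.31 on the arrays in 0.1% FBS, and 0.43 and 0.46 in MEM with 10% FBS at 90% confluence. Whether a list differed between these comparisons was not tested.

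**Figure D5:**
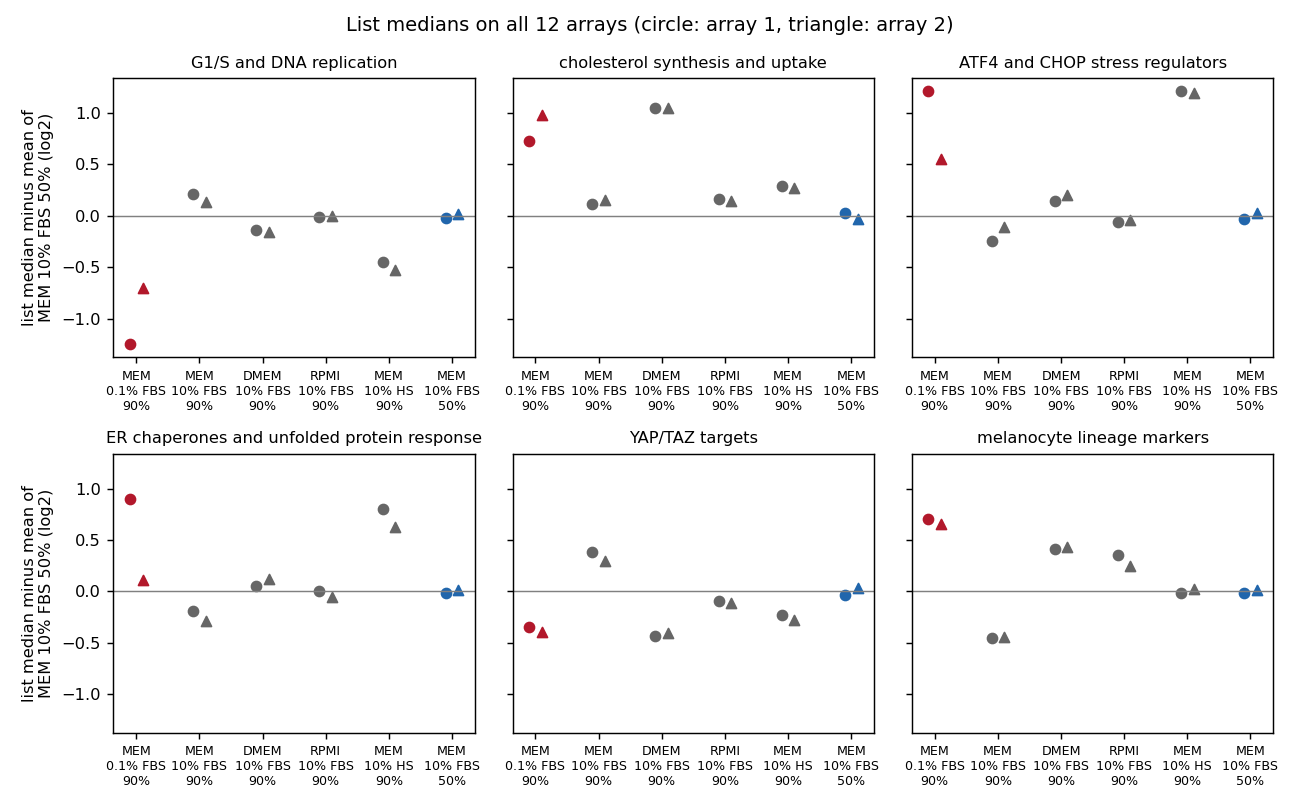
Median of 6 lists on each of the 12 arrays, as the difference from the mean of MEM with 10% FBS at 50% confluence (log2), for 0.1% FBS (red), the 4 other conditions at 90% confluence (grey) and 50% confluence (blue), with circles for array 1 and triangles for array 2. Replication genes are lowest in 0.1% FBS (-1.25 and -0.71), sterol genes are high in 0.1% FBS and in DMEM, ATF4 regulators in 0.1% FBS and in HS, and YAP and TAZ targets are above 0 in MEM with 10% FBS at 90% confluence (0.39 and 0.30).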

How the data were processed

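MDA-MB-231 cells were profiled on Illumina HumanHT-12 v4 arrays, 2 for each of 6 conditions. The authors exported signals with BeadStudio, normalized them between arrays by quantiles in limma, and deposited linear signal intensities and their log2 values without detection p-values. The log2 table was analysed. A mean per condition was fitted to all 12 arrays with limma 3.58.1 in R 4.3.3 (6 residual and 8.96 prior degrees of freedom), p-values were two-sided and adjusted by Benjamini-Hochberg over 47231 probes, of which 3270 have no symbol. The fit was tested on simulated data. Genes were read by the brightest probe of a symbol. Other probes exist, but none was called, for DKK1, CCNE2, CCNG1, CDKN2D, ACAT2, ATF3, PSAT1, CRELD1, ID1, ETV5, MT1E and MITF. All 785 entries of 37 lists were measured, 3 of them through an older symbol. Members and lists were chosen with earlier results of these data known. Named are the genes of the RT-PCR, the 12 largest called increases and decreases, up to 5 called members of each list by size, and, as chosen after their values were seen, list members that were not called or are needed as marker, exception or example of a promoter motif. An "at least" fold sets the brighter mean against the higher of background and the dimmer signal on each array. Replicate numbers were checked as pairs in the 2 compared conditions, where over all probes they showed little pairing. Promoters were searched in Python 3.11.15 and figures drawn with matplotlib 3.10.9. Symbols deposited in the form of dates were kept in that form. Alternatives covered normalization, scaling, filters, the arrays fitted, the variance model, the replicate block, the methods' t-test and each array left out. Some genes are not reported here.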

Additional observations from a re-analysis of the deposited data

How the results depend on the processing

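The count of 5111 called probes lay between 4214 and 5440 under the other normalizations, scalings, filters and variance models, with 4018 for 1 probe per symbol, and the share higher lay between 49.7% and 53.8% throughout. Leaving out an array gave 3147 to 4606 called probes, 1564 to 2311 higher, 1583 to 2295 lower and 685 to 1003 at least 2-fold, the lowest counts called being without array 1 at 50% confluence. The methods' t-test on the compared arrays, which has few degrees of freedom, called 132 probes at its P under 0.001 (68 higher, 64 lower, 37 at least 2-fold) and 2 after Benjamini-Hochberg (1 higher, 1 lower, 0 at least 2-fold), against 9288 at an unadjusted p under 0.05 in limma. The 2-fold limit alone passed 768 probes (413 higher, 355 lower). In 0.1% FBS minus the mean of DMEM, RPMI-1640 and HS, the t-test called 470 and 32 after adjustment, the 2-fold limit passed 380, and leaving out an array gave 4220 to 6042. In that mean minus 50% confluence, these were 98, 0 and 64, and leaving out an array gave 1028 to 3056, with 1028 and 1151 without array 1 and array 2 at 50% confluence. With the linear table VIM turned to 0.67 and TNFRSF14 to -0.31, through the exchanged values. With the replicate number as a block, 5244 probes were called, 5020 of them shared. The array 1 minus array 2 differences of the 2 compared conditions correlated at 0.038. Pairing among the other conditions, or in some genes alone, was not tested. Of 161 called named genes 130 kept their call in every limma setting, and the cause of the other losses was not tested. LPCAT3 and PLK2 were among those lost most often.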
